A study of Mus musculus with 2 samples.

Results

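The D-type cyclins, their catalytic partners and the E-type cyclins were examined in mouse embryo fibroblasts (MEFs) labelled Ebp1 knock out, which carry a gene trap in Pa2g4, the gene of Ebp1, and in wild type MEFs. The members were all probe sets annotated with a single symbol among Ccnd1, Ccnd2, Ccnd3, Cdk4, Cdk6, Ccne1 and Ccne2. They were chosen by name, with earlier results of these data known. They comprised 7 of 18193 genes and 22 of 45037 probe sets on the array. MEFs were derived from embryos of 12.5 days, and RNA was taken at passage 2 from Ebp1 knock out and from wild type cells grown in medium with 10% fetal bovine serum. The knock out animals carry a retroviral gene trap in an intron of Pa2g4, made in 129/SvEvBrd embryonic stem cells, and were kept on a mixed C57BL/6 and 129SvEvBrd background. The number of embryos behind each culture was not stated. Each genotype was measured on 1 array, so no error or test accompanies any value. Culture, array and genotype cannot be told apart.

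D-type cyclins are induced by growth factors and bind CDK4 or CDK6. The resulting kinases phosphorylate the retinoblastoma protein, which releases E2F transcription factors. E2F in turn activates the E-type cyclin genes, whose products drive CDK2 and entry into S phase. In fibroblasts the D-type cyclins link serum mitogens to the cell cycle. The arrays profiled how transcript levels differ between MEFs of the trapped line and wild type MEFs.

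In Ebp1 knock out MEFs the signal of Ccnd1 was higher on each of its 3 probe sets under each scaling tried, and over 2-fold higher on all 3 as deposited, on 2 after median centring and on 1 after scaling to the spike-ins. The other D-type cyclin genes and Cdk4 differed little between the genotypes. Cdk6 was moderately higher on its brightest probe sets as deposited and just below 0 on the brightest after scaling to the spike-ins. Ccne1 was lower on both of its probe sets under each scaling tried. Ccne2, dim on its only probe set, differed little.

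The regions upstream of 4 members were present in the RefSeq promoter table of build GRCm38.p6, with 5 start sites. They were those of Ccnd3, Cdk4, Cdk6 and Ccne1, and the entries not found were those of Ccnd1, Ccnd2 and Ccne2. The 250 bases before the start of Cdk4 and of Ccne1 are shown because these genes have the most motif matches, and because Ccne1 had the lowest ratio of the members. Both are written 5′ to 3′ on the strand of the gene, with E-boxes (CACGTG, bound by Myc and related factors) and GC boxes (GGGCGG on either strand, bound by Sp1 family factors) in capitals. The first lies at chr10:127063285-127063534 on the plus strand and the second at chr7:38107491-38107740 on the minus strand.
Cdk4: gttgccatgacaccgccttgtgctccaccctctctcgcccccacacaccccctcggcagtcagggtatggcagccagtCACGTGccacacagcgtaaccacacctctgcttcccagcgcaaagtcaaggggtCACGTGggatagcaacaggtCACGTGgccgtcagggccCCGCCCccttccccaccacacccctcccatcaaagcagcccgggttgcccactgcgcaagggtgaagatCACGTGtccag
Ccne1: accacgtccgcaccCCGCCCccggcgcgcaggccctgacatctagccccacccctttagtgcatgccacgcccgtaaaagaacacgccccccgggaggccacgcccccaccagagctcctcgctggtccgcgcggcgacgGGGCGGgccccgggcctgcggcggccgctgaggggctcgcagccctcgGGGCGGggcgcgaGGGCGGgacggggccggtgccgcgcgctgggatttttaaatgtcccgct
The Cdk4 region held 4 E-boxes and 1 GC box, and the Ccne1 region 4 GC boxes and no E-box. Among 32851 upstream regions of the same length, 6.02% held an E-box and 32.7% a GC box, and 0.0213% held 4 or more E-boxes and 4.09% held 4 or more GC boxes. Cdk6 had 1 E-box and no GC box, and the start sites of Ccnd3 had 2 and 1 GC boxes and no E-box. The E2F words TTTCCCGC, TTTCGCGC, TTTGCCGC and TTTGGCGC, searched on both strands, were in none of the 5 regions and in 1.86% of all. The AP-1 word TGANTCA was likewise in none of the 5 and in 6.75% of all. E-boxes read the same on both strands and were counted once, and no E-box overlapped a GC box here. These matches describe the letters only, and no binding was measured.

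The signals are linear intensity units, scaled by the authors to a constant target on each array. A probe set counted as well measured once either array showed 500 or more, and signals under 100 were treated as low. Ratios are given as log2 of the knock out signal divided by that of the wild type. The 9 probe sets of hybridization spike-ins gave a median of 1.31 times the wild type signal on the knock out array. Centring on the array median or on these spike-ins shifts all log2 ratios down together, by 0.11 or 0.39. A positive ratio smaller than these amounts therefore changes sign with the scaling. Across probe sets with mean signals over 2000 the standard deviation of the log2 ratio was 0.25. It was 0.33 between 1000 and 2000 and 0.37 between 500 and 1000. This is a spread between probe sets and not between replicates.

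Ccnd1 (chromosome 7, 144929931 to 144939831, GRCm38.p6) encodes Cyclin D1. Its brightest probe set, 1448698_at, gave 3694 in knock out MEFs and 1730.4 in wild type MEFs, a log2 ratio of 1.09. The next, 1417420_at, gave 3271 in knock out and 1284 in wild type MEFs, at 1.35. The dimmest, 1417419_at, gave 1477 in knock out and 381 in wild type MEFs, at 1.95. All 3 probe sets were higher in the knock out cells, and they were annotated with the same transcript accession. The knock out signal of the dimmest probe set was 3.87 times that of the wild type, and that of the brightest was 2.13 times. In bulk RNA, fewer cells that express a gene and less RNA per cell cannot be told apart.

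Of the 17 member probe sets that reached 500, 3 were over 2-fold higher in knock out MEFs, all of Ccnd1, and none was over 2-fold lower. The background over all probe sets that reached 500 was 1.64% higher and 0.942% lower. Counted by the brightest probe set of each gene, 1 of 6 members that reached 500 was higher and none lower. Over 5014 genes these shares were 0.758% higher and 1.06% lower. Ccnd1 ranked 29 of the 5014 genes by log2 ratio from the highest down. With so few members the count rests on Ccnd1 alone. The paper had already listed Ccnd1 as higher in these data, and the members were chosen with that known. The count is therefore a description and not independent of the earlier result. By RT-PCR and quantitative PCR the paper also found more Cyclin D1 mRNA in knock out MEFs. Its Western blot showed equal Cyclin D1 protein in both genotypes.

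As deposited, the probe sets of Ccnd1 agreed in direction and in passing 2-fold, though not in size. Of 437 genes with at least 3 probe sets that reached 500, Ccnd1 was the only 1 with all of them over 2-fold higher, and Vgll3, which encodes a cofactor of TEAD factors, the only 1 with all of them over 2-fold lower. Quantile normalization and loess gave the same pair of genes. After median centring 2 of the 3 probe sets of Ccnd1 stayed over 2-fold, with the brightest at 0.99. After scaling to the spike-ins only the dimmest did, at 1.57, with the others at 0.71 and 0.96. The size of the difference therefore depended on the probe set and the scaling, while its direction was the same for all 3 probe sets under each of the 4 other scalings.

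**Figure D1:**
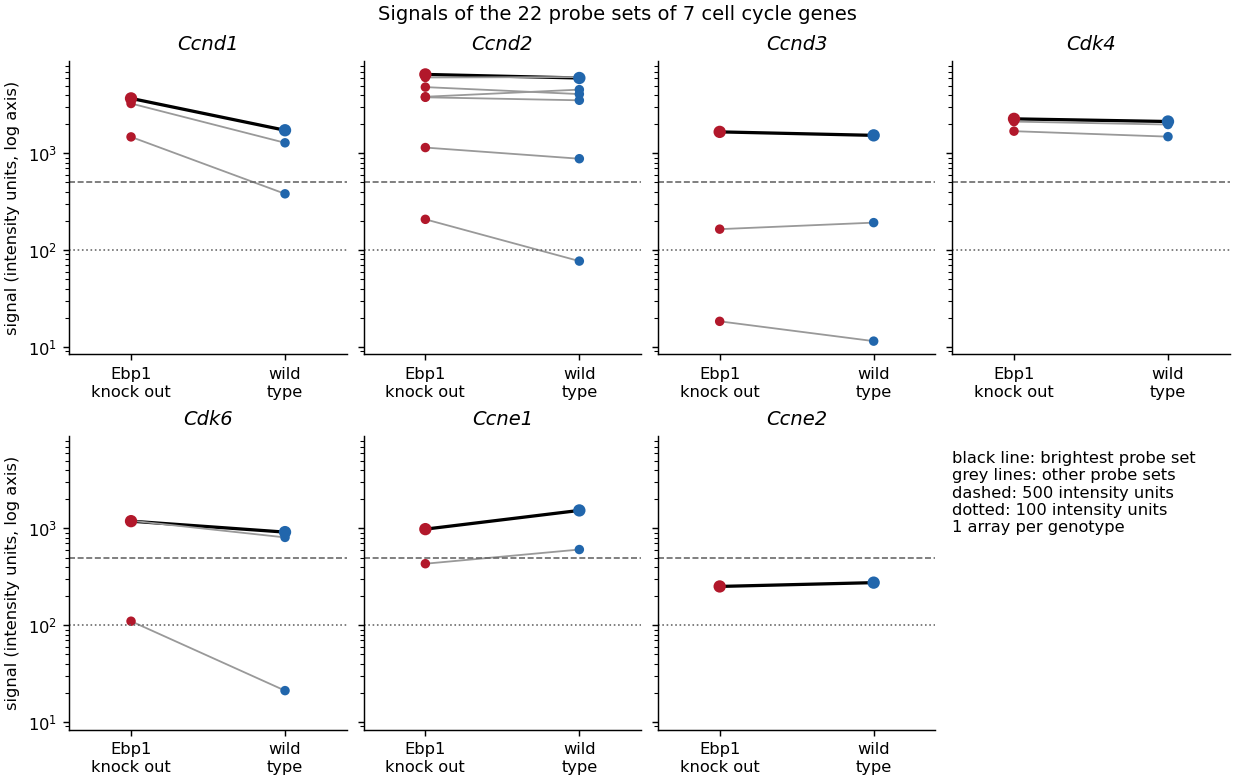
Signals of the 22 member probe sets in Ebp1 knock out (left, red) and wild type (right, blue) MEFs, in intensity units on a log axis, with 1 array per genotype; lines join the same probe set, black for the brightest of a gene. All 3 lines of Ccnd1 slope down toward the wild type, with 3694, 3271 and 1477 in knock out cells against 1730.4, 1284 and 381 in wild type cells, and both lines of Ccne1 slope the other way.

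Ccnd2 (chromosome 6, 127125162 to 127152188) encodes cyclin D2 and had the most probe sets, 7. The brightest, 1416122_at, gave 6534 in knock out and 6001 in wild type MEFs, a log2 ratio of 0.12. The next, 1434745_at, gave 6077 in knock out and 6132 in wild type MEFs, at -0.01. These values were nearly even, and both probe sets lay below 0 after scaling to the spike-ins. The 4 other probe sets that reached 500 gave log2 ratios from -0.24 (3840.3 in knock out and 4550.4 in wild type MEFs) to 0.38 (1146 and 879). The last, 1416124_at, was 208 in knock out and 76.9 in wild type MEFs, at least 2.08-fold higher when the low signal is set to 100. That probe set did not reach 500, so it was not counted.

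Ccnd3 (chromosome 17, 47505051 to 47599689) encodes cyclin D3. Its brightest probe set, 1415907_at, gave 1665 in knock out and 1532 in wild type MEFs, a log2 ratio of 0.12, or -0.27 after scaling to the spike-ins. A dimmer one, 1444323_at, lay the other way, with 164 in knock out and 192 in wild type MEFs (-0.22). The dimmest, 1438805_at, was low on both arrays, at 18.3 in knock out and 11.4 in wild type MEFs, and no fold is given for it. Among the 3 D-type cyclin genes Ccnd1 was thus over 2-fold higher as deposited, with both others at 0.12 on their brightest probe set.

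Cdk4 (chromosome 10, 127063535 to 127067288) encodes a catalytic partner of the D-type cyclins. Its 3 probe sets gave 2269, 2126 and 1693 in knock out MEFs and 2131, 1982 and 1486 in wild type MEFs, with log2 ratios of 0.09, 0.10 and 0.19. They agreed within 0.10, and 2 of them lay below 0 after median centring and all 3 after scaling to the spike-ins.

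Cdk6 (chromosome 5, 3341004 to 3531008) encodes the other kinase. The brightest probe set, 1435338_at, gave 1187 in knock out and 915 in wild type MEFs, at 0.38. The next, 1455287_at, gave 1201 in knock out and 807 in wild type MEFs, at 0.57. Both were higher in knock out cells as deposited and with 3 of 4 other scalings, and scaling to the spike-ins gave -0.01 and 0.19. The dimmest, 1460291_at, gave 109.8 in knock out and 21.0 in wild type MEFs. It has a log2 ratio of 2.38 as measured, but at least 1.10-fold is all that can be stated with the low signal set to 100. The mean over all probe sets of Cdk6, 1.11, rests on this low value, and over the 2 probe sets with at least 100 on both arrays it was 0.47.

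Ccne1 (chromosome 7, 38097984 to 38107490) encodes cyclin E1, the partner of CDK2 at the start of S phase. The brightest probe set, 1441910_x_at, gave 982 in knock out and 1533 in wild type MEFs, at -0.64. The other, 1416492_at, gave 431 in knock out and 604 in wild type MEFs, at -0.49. Both probe sets were lower in knock out cells under each scaling, with the brightest between -1.03 and -0.61. Its suffix marks probes that can bind more than 1 transcript. Ccne1 passed the 2-fold threshold only after scaling to the spike-ins. Ccne2 (chromosome 4, 11190433 to 11204779), which encodes cyclin E2, had a single probe set at 251 in knock out and 275 in wild type MEFs (-0.13), and it did not reach 500 on either array.

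**Figure D2:**
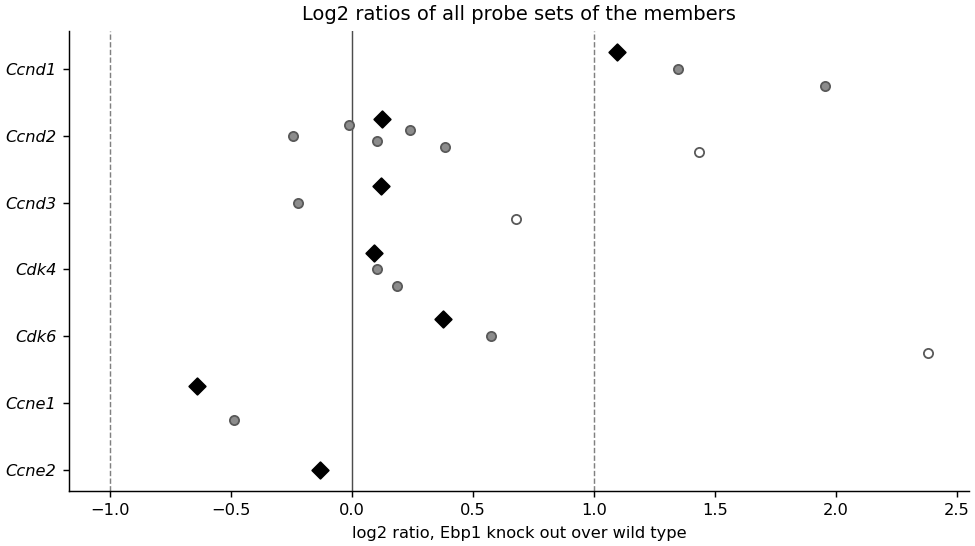
Log2 ratios (knock out divided by wild type) of all 22 probe sets, with 1 row per gene; diamonds mark the brightest probe set of a gene, circles the others, open symbols a signal under 100 on at least 1 array, and dashed lines a 2-fold ratio. The 3 probe sets of Ccnd1 lie from 1.09 to 1.95 and those of Ccne1 at -0.64 and -0.49, while filled symbols of the other genes lie within 2-fold under the deposited scaling.

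Of the 19 member probe sets with at least 100 on both arrays, 13 lay above 0 as deposited, against 47.2% of the 17865 probe sets with such signals. They were 8 of 11 for the D-type cyclins, 5 of 5 for the kinases and 0 of 3 for the E-type cyclins. With scaling to the spike-ins these counts were 3, 1 and 0, against 12.3% of all such probe sets. The median log2 ratio of the 6 members that reached 500 was 0.12, against -0.05 over 5014 genes, and it turned to -0.27 after scaling to the spike-ins. Over these probe sets, the range within 1 gene was widest for Ccnd1, at 0.86 on the log2 scale, followed by 0.63 for Ccnd2, 0.34 for Ccnd3, 0.20 for Cdk6, 0.16 for Ccne1 and 0.10 for Cdk4. Over 2763 genes with at least 2 such probe sets and a brightest one that reached 500, the median range was 0.39, and 14.4% had a range as wide as that of Ccnd1. In Ccnd1 the ratio was larger the dimmer the probe set. Over all these genes the dimmest probe set had a higher ratio than the brightest in 64.6%, with a median difference of 0.15. The positions of the probe sets along the transcripts were not used here. Control probe sets gave 3′ over 5′ ratios of 1.21 for Actb and 0.800 for Gapdh on the knock out array, against 1.29 and 0.949 on the wild type array, and their part in these differences was not tested.

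**Figure D3:**
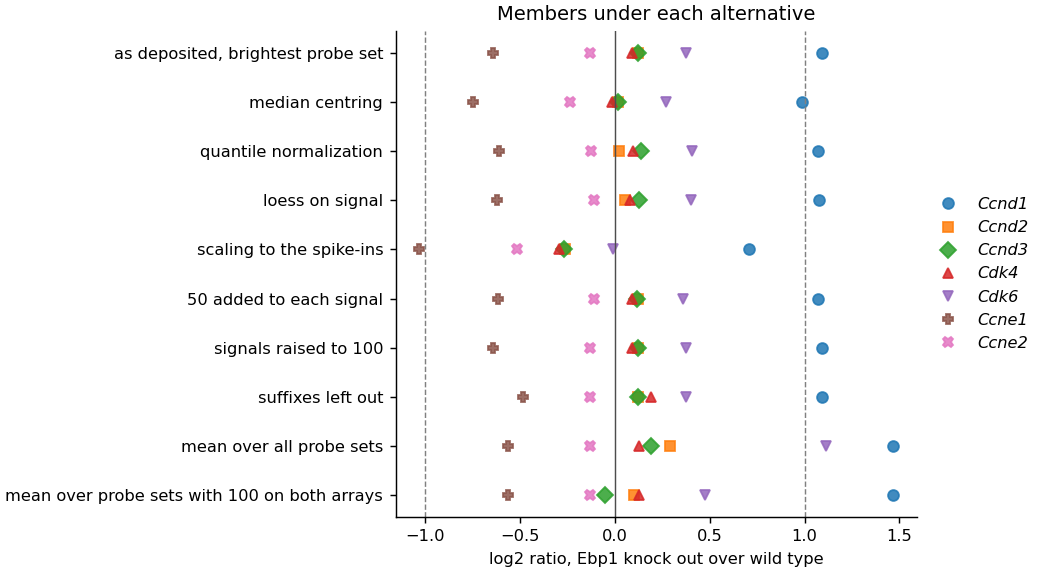
Log2 ratios (knock out divided by wild type) of the 7 members, as deposited on the brightest probe set (top) and under 9 alternatives; dashed lines mark a 2-fold ratio. Ccnd1 keeps the highest ratio, from 0.71 with spike-ins to 1.47 with means over probe sets, and Ccne1 the lowest, from -1.03 to -0.49, while Ccnd2, Ccnd3, Cdk4 and Cdk6 lie below 0 with spike-ins, Cdk4 also with median centring and Ccnd3 with means over probe sets of at least 100 on both arrays.

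The wider pathway was described by 6 lists of genes, counted on the brightest probe set among genes that reached 500. Over all 5014 such genes, 0.758% were over 2-fold higher and 1.06% lower. At these shares a short list would mostly hold none. None of 8 other cyclin, kinase and CDC25 genes was over 2-fold apart, with a median of -0.14. It was 0.06 with all probe sets of a gene averaged, and -0.05 with only those of at least 100 on both arrays. Cdk1, the mitotic kinase, gave 1405 in knock out and 1554 in wild type MEFs (-0.15), and Ccnb2, which encodes a mitotic cyclin, gave 596 and 742 (-0.32). Cdk2, the partner of cyclin E, gave 526 in knock out and 577 in wild type MEFs (-0.13), and is named after its values were seen. Cdk7, the kinase that activates other CDKs, gave 1363 in knock out and 1065 in wild type MEFs (0.36). Its partner Ccnh gave 933 and 1124 (-0.27) on the brightest probe set and 0.16 on the next. Cdc25a, which encodes a phosphatase that activates CDK2, had a pair of probe sets that lay apart at 0.42 and -0.42.

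Of 11 genes of E2F targets and S phase that reached 500, none was over 2-fold apart, and 2 lay above 0, against 42.2% of all genes that reached 500. Their median was -0.17, against -0.05 over all genes, and it turned to 0.09 with all probe sets of a gene averaged. With only probe sets of at least 100 on both arrays averaged, it was -0.15. Pcna, the sliding clamp of DNA polymerase, gave 2805 in knock out and 2524 in wild type MEFs (0.15, or below 0 with spike-ins). Mcm5, a subunit of the replicative helicase, gave 1046 in knock out and 1365 in wild type MEFs (-0.38) on the brightest probe set. Mcm4, another subunit, gave 822 and 1024 (-0.32) on its brightest. The suffix of both marks probes that can bind other transcripts, and the next probe sets gave -0.20 for Mcm5 and -0.09 for Mcm4. Tk1, thymidine kinase, gave 674 in knock out and 522 in wild type MEFs (0.37, or below 0 with spike-ins). Rrm2, a ribonucleotide reductase subunit, gave -0.17 on the brightest of 3 probe sets and 0.78 on the dimmest of them.

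Among the RB, E2F and DP genes only 4 of 13 reached 500, none over 2-fold apart, with a median of 0.03. It was below 0 after median centring, with spike-ins, with a minimum of 100 and without probe sets that can bind other transcripts. Tfdp1, the dimerization partner of E2F, gave 1534 in knock out and 1392 in wild type MEFs (0.14). E2f6, a repressor member, gave 1018 and 893 (0.19), E2f5 gave 714 and 759 (-0.09), and E2f3, an activator member, gave 412 and 518 (-0.33). Rb1, which encodes the main substrate of the D-type kinases, stayed under 500, with 458 in knock out and 456 in wild type MEFs (0.00). E2f1 also did, with 307 in knock out and 289 in wild type MEFs (0.09) on the brightest probe set and -0.38 on the next. Rb1 and E2f1 were named after their values were seen.

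Of 7 CDK inhibitor genes 4 reached 500, none over 2-fold apart. Cdkn1a, which encodes p21, gave 3917 in knock out and 3611 in wild type MEFs (0.12), and Cdkn1c, which encodes p57, gave 798 and 453 (0.82). Cdkn1b, which encodes p27, gave 652 in knock out and 793 in wild type MEFs (-0.28), and Cdkn2b, which encodes the CDK4 and CDK6 inhibitor p15, gave 1659 and 1574 (0.08). Cdkn2a, from whose locus the CDK4 and CDK6 inhibitor p16 is made, gave 435 in knock out and 109 in wild type MEFs (2.00). It was below 500 on both arrays and is named after its values were seen. The paper had listed Cdkn2a as higher in knock out MEFs, at a smaller fold than these signals give. The median of the 4 was 0.10, and it was below 0 after median centring and with spike-ins.

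Over all genes that reached 500, 0.758% passed 2-fold upward and 1.06% downward. Of 13 factors known to act on Ccnd1 that reached 500, 1 passed 2-fold upward and none downward as deposited. It was Fosl1, an AP-1 subunit, with 695 in knock out and 315 in wild type MEFs (1.14). Jun, its partner in AP-1, gave 1064 in knock out and 656 in wild type MEFs (0.70) on the brightest probe set and 0.10 on the other, and Jund gave 2630 and 3179 (-0.27). Ctnnb1, which encodes beta-catenin, gave 5230 and 5348 (-0.03) on the brightest probe set, 0.59 on the next and 1.22 on the dimmest. Sp1 gave 994 in knock out and 1292 in wild type MEFs (-0.38), and Egr1, an immediate early factor, gave 3121 and 3370.4 (-0.11). The median of this list was -0.04, and it lay above 0 with means over probe sets. Myc, named after its values were seen for the E-boxes shown above, gave 725 in knock out and 519 in wild type MEFs (0.48).

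Of 6 genes for turnover and assembly of cyclin D and cyclin E complexes that reached 500, none was over 2-fold apart. Their median was -0.04, or 0.09 with all probe sets of a gene averaged. With only probe sets of at least 100 on both arrays averaged, it was -0.04. Gsk3b, whose kinase phosphorylates Cyclin D1 ahead of its export and degradation, gave 1145 in knock out and 1516 in wild type MEFs (-0.41) on the brightest probe set and 0.04 on the next. Xpo1, the nuclear export receptor, gave 1459 and 1438 (0.02). Cul1, the scaffold of SCF ubiquitin ligases, gave 769 in knock out and 1008 in wild type MEFs (-0.39), and its adaptor Skp1 gave 2935 and 2504 (0.23). Cdc37, the chaperone that brings CDK4 to Hsp90, gave 2364 in knock out and 2503 in wild type MEFs (-0.08).

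**Figure D4:**
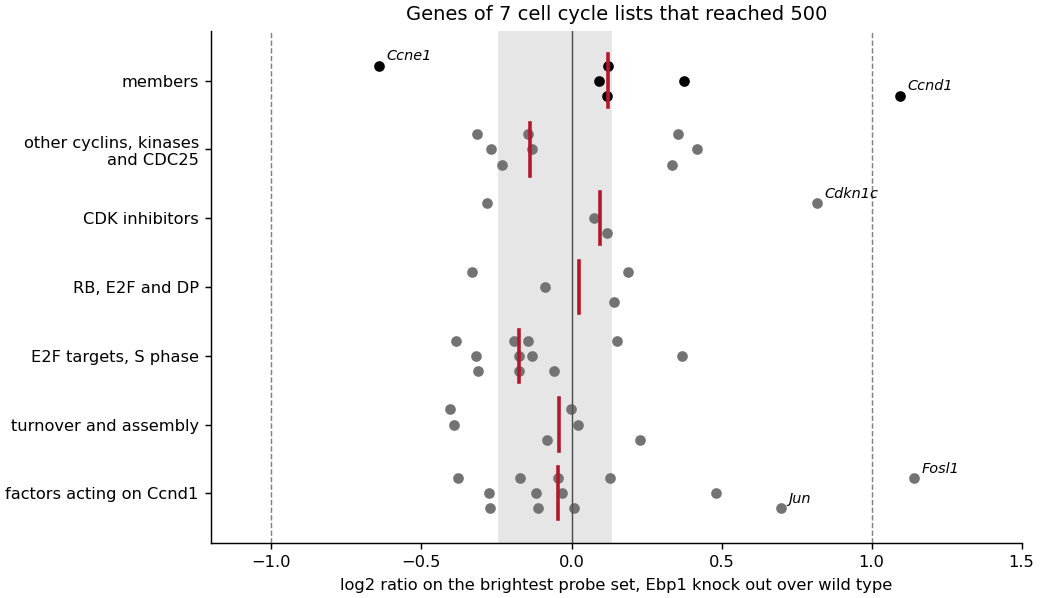
Log2 ratios (knock out divided by wild type) on the brightest probe set for genes that reached 500, with 1 row per list; points are genes, red bars the median of a list, the grey band the span from the lower to the upper quartile of all 5014 genes, and dashed lines a 2-fold ratio. Under the deposited scaling Ccnd1 (1.09) and Fosl1 (1.14) lie beyond 2-fold, and neither does with spike-ins.

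Pa2g4, the trapped gene, was lower in knock out cells on all 5 of its probe sets. The dimmest of them, at 34.7 in knock out and 60.8 in wild type MEFs, was under 100 on both arrays. The brightest gave 1178 in knock out and 1835 in wild type MEFs (-0.64), and the next gave 1072 and 1343 (-0.33). The array signal of Pa2g4 was thus lower but still present. The paper, by contrast, detected no Ebp1 transcript by RT-PCR and no Ebp1 protein by Western blot in knock out MEFs. What the remaining array signal stems from was not tested. Markers of fibroblasts were bright on both arrays, with 9 of 10 at 500 or more and summed signals of 53269 in knock out and 52662 in wild type MEFs. Single markers lay on both sides, with Vim at 0.25 and Col1a1 at 0.10, and with Postn at -0.47, Thy1 at -0.58, Pdgfrb at -0.67 and Fap, which did not reach 500, at -1.40 (155 in knock out and 409 in wild type MEFs). Epcam, an epithelial marker, was 1350.5 in knock out and 174 in wild type MEFs, while 4 of the 6 epithelial markers, Cdh1, Krt8, Krt18 and Krt14, were under 100 on both. Summed signals of the 6 epithelial markers were 1714 and 521, those of 5 endothelial ones 224 and 208, of 5 blood cell ones 531 and 507, of 5 muscle ones 496 and 444 and of 5 neural ones 1740.0 and 1457, each in knock out and then in wild type MEFs. Most of the epithelial sum in knock out MEFs was Epcam, whose probe set has a suffix that marks probes that can bind other transcripts. The markers Pecam1, Ptprc, Myod1 and Sox2 were under 100 on both arrays. Others were not, with Map2 at 1059 in knock out and 840 in wild type MEFs, Nes at 470 and 344, Csf1r at 385 and 366, Actc1 at 247 and 220 and Kdr at 156 and 101. The part of these cells in the ratios of the cyclin genes was not tested.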

How the data were processed

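Total RNA of 2 samples, 1 per genotype, was labelled with biotin and hybridized to Affymetrix arrays. The methods name an array of human design, whereas the identifiers in the deposited tables belong to a mouse design. The deposited intensity values are linear signals per probe set that the authors made with MAS5, which sets perfect-match against mismatch probes and scales each array to a constant target. Detection calls were not used here. Control probe sets (64) were left out. Of the others 34945 had 1 gene symbol, 932 several and 9160 none. Symbols were updated through the Entrez identifier to GRCm38.p6.

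For each gene the brightest probe set (highest mean log2 signal) was reported, beside all others for the members. Thresholds of 500 and 2-fold follow the methods. The p-value cutoff that the methods also set was not applied here. No test was run and n is 1 array per genotype. Genes named by rule were all members, Pa2g4 and the 5 genes nearest to Ccnd1 in both log2 signals. Of each pathway list they were those over 2-fold apart, the 2 brightest and the 2 farthest from 0 in each direction. Outside this rule stand Vgll3, the single cell type markers and the genes said in the text to be named after their values were seen. Members, lists and alternatives were chosen with earlier results of these data known. There were 14 alternatives: median centring, quantile normalization, loess (fraction 0.3), spike-in scaling, 50 added, signals raised to 100, other choices of probe sets, minimums and thresholds. Ratio and count steps were tested on simulated data. Tables were handled in pandas 2.3.3 and numpy 2.4.6 under Python 3.11.15, loess came from statsmodels 0.14.6, and plots were drawn with matplotlib 3.10.9.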

Additional observations from a re-analysis of the deposited data

How the results depend on the processing

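Of 63 log2 ratios of members under the alternatives, 6 changed sign and 1 differed by over 1.5-fold from the main value. This was Cdk6 at 1.11 with the mean over all probe sets, which rests on a probe set under 100 in wild type MEFs. Ccnd1 (0.71 to 1.47), Ccne1 (-1.03 to -0.49) and Ccne2 (-0.52 to -0.11) kept their sign under all 9 alternatives. Those that changed it, Ccnd2, Ccnd3, Cdk4 and Cdk6, did so with spike-ins, Cdk4 also with median centring and Ccnd3 with means over probe sets of at least 100. The count of 1 member over 2-fold higher was 0 with median centring, 0 with spike-ins, 0 at a threshold of 3-fold and 2 with the mean over all probe sets (Ccnd1 and Cdk6). The count of 0 over 2-fold lower was 1 with spike-ins and 1 at 1.5-fold, both Ccne1. Of 84 list medians 12 changed sign and none differed by over 1.5-fold. Median centring and spike-in scaling shift all ratios alike, quantile normalization and loess do not. No paired analysis was possible, because each genotype had a single array. Ratios are limited by low signal for Ccnd2, Ccnd3 and Cdk6 on their dimmest probe sets. Apart from these shifts and thresholds, the cause of a change was not tested.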

Other observations

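The genes whose pair of signals lay nearest to that of Ccnd1 were Efemp1, Cited2, Rian, Cd24a and Axl, by Euclidean distance of log2 signals over the 2 arrays, among genes that reached 500. Efemp1, which encodes an extracellular matrix glycoprotein, was closest, with 3832 in knock out and 1904 in wild type MEFs, a log2 ratio of 1.01 at a distance of 0.15. Cd24a, which encodes a surface glycoprotein, gave 3002 in knock out and 1520.1 in wild type MEFs (0.98). Cited2, Rian and Axl had log2 ratios of 0.74, 0.63 and 0.57. With 2 arrays this likeness says only that both signals were similar.

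Genes beyond the members also had probe sets that lay apart. For Rrm1, the large subunit of ribonucleotide reductase, named after its values were seen, the brightest probe set gave 1754 in knock out and 1980.3 in wild type MEFs (-0.17), and the next gave 1006 and 396 (1.34). A gene such as this or Ctnnb1 is over 2-fold higher or nearly even depending on the probe set.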
